A study of Mus musculus with 6 samples.

Results

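The genes described here were the DNA methylation writers and erasers, 7 of the 49315 genes counted: the DNA methyltransferases Dnmt1, Dnmt3a and Dnmt3b, their recruiting factor Uhrf1, and the dioxygenases Tet1, Tet2 and Tet3. They were chosen by name and not by a threshold on their values, and all 7 were found and passed the filter on low counts. The question was the level of each in hematopoietic stem and progenitor cells (HSPCs) with and without ING4, a chromatin reader that works with histone acetyltransferase complexes. Bulk RNA-seq was made of LT-HSCs, ST-HSCs and MPPs (long-term and short-term hematopoietic stem cells and multipotent progenitors), each sorted once from WT mice and once from ING4-/- mice, which gave 6 libraries. The sort took Lin-, Sca1+ and cKit+ cells that lacked CD48 and split them by CD34 and CD150. The WT mice were C57BL/6 and carried CD45.2, as did the ING4-/- mice, for which the sources used here name no Cre or promoter. The control mice were 8 to 12 weeks of age, and the age and strain of the ING4-/- donors of these libraries were not given in the sources used here. Marrow of 8 to 10 mice of a genotype was pooled and depleted of lineage-positive cells before the sort, so that 1 library stood for 1 pool, no treatment was given to either group, and the 3 populations of a genotype were not independent animals.

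DNA methylation is written at CpG sites and has to be copied at each cell division. Dnmt1 copies the pattern onto the new strand, brought to it by Uhrf1, which binds the half-methylated sites behind the replication fork, whereas Dnmt3a and Dnmt3b place methyl groups on unmethylated DNA. The Tet enzymes oxidise the methyl group, which starts its removal, and loss of Dnmt3a or Tet2 in blood stem cells is known for clonal expansion of those cells.

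Total counts were 7839326 to 9363442 in the WT libraries and 35596876 to 39192588 in the ING4-/- libraries. Ing4 itself had 247, 162 and 247 counts in the WT libraries, given throughout in the order LT-HSC, ST-HSC and MPP, against 0, 24 and 76 in those lacking ING4, and 34.9% of its exonic bases overlap the gene model Gm44597 on the same strand. Its log2 fold change was -4.49 (SE 1.56, adjusted p = 0.0373), or -5.45 with the population as a block (adjusted p = 0.0783), -4.24 with the background described next subtracted (0.0862) and -3.92 with upper-quartile normalization (0.0544), none of which passed. The WT libraries also held counts over genes not expected in blood cells. Over 1429 olfactory and vomeronasal receptor genes these came to 18.1 to 22.7 counts per kb of exon in WT against at most 0.0853 in ING4-/-, and at this density they made up 22.6 to 33.4% of all WT counts. This background, taken as the mean density times the exonic length of a gene, was not tested for proportionality and was missed widely by single genes (Dnmt3l had 1 count in WT LT-HSCs against an estimate of 66.9). It is given beside the members below, because 4 of the 7 have at least 10000 exonic bases. Of the markers of the sort, Kit had at least 3510 counts in every library, Slamf1 (CD150) was highest in LT-HSCs of each genotype, and Cd48, whose protein the gate excluded, had 0, 1077 and 4300 counts in the ING4-/- libraries. Summed levels of 10 granulocyte and monocyte markers were 427 to 685 CPM (counts scaled to library size) in WT and 1197 to 1431 CPM in ING4-/-, those of 10 erythroid markers were 57.6 to 224 and 110 to 275 CPM, those of 8 T and NK cell markers 84.0 to 164 and 61.5 to 308 CPM, and those of 8 B cell markers 107 to 135 and 66.6 to 125 CPM. Of the B cell markers 6 of 8 had no count in any ING4-/- library (Pax5 and Ebf1 among them) and Cd79b had 3508, 2548 and 2191, and of the T and NK cell markers 4 of 8 had none (Cd3e among them) and Nkg7 had 842, 8442 and 7728. The part of other cell types in the values below was not tested.

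Levels were compared between genes as CPM per kb of exon. Uhrf1, Dnmt1 and Dnmt3b held the 3 highest levels in all 6 libraries, while the Tet genes and Dnmt3a held the 4 lowest. In WT the 3 highest lay between 9.32 and 37.1 CPM per kb, and the 4 lowest between 1.74 and 6.92. Tet3 was the lowest member in each WT library, and Tet2 was the lowest in each ING4-/- library. Uhrf1 ranked first in 5 libraries, and Dnmt1 ranked first in WT LT-HSCs. In WT the Dnmt1 mean (30.7 ± 4.82, SD, n = 3) and the Uhrf1 mean (32.2 ± 7.65) differed by less than their spread, and so did Tet1 (5.69 ± 1.13), Dnmt3a (5.14 ± 1.51) and Tet2 (5.01 ± 0.13).

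**Figure D1:**
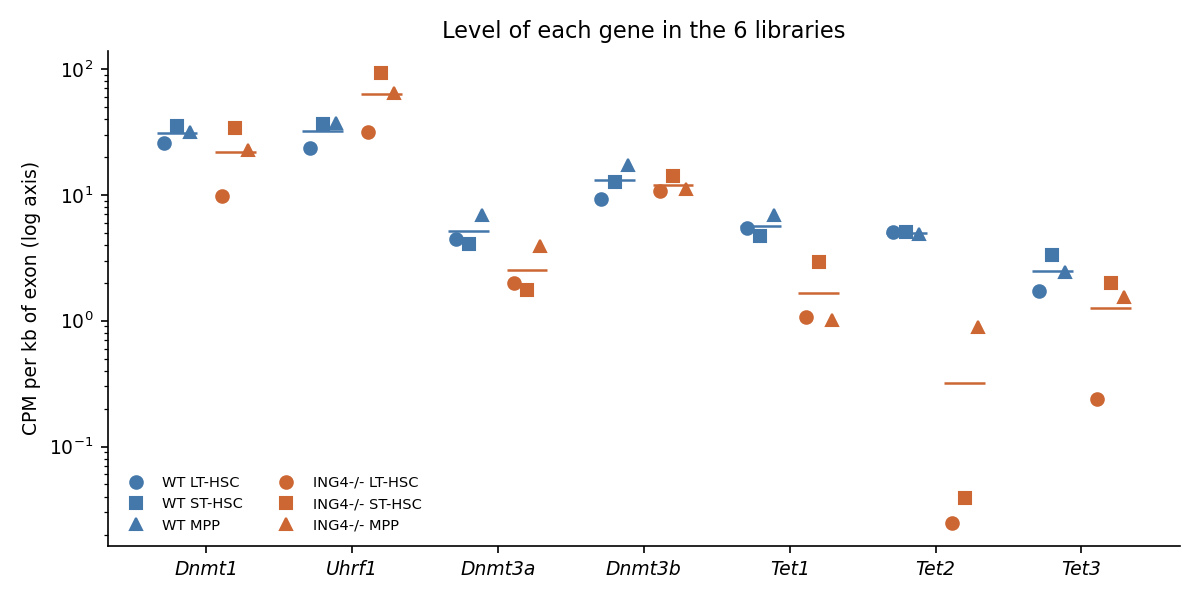
The level of each of the 7 genes in CPM per kb of exon, on a log axis, with a point for each library (blue for WT, orange for ING4-/-; circle, square and triangle for LT-HSC, ST-HSC and MPP) and a line at the mean of each genotype. The WT and ING4-/- points are apart for Dnmt3a, Tet1 and Tet2 and overlap for the other 4 genes, and the Tet2 points of ING4-/- LT-HSCs and ST-HSCs lie at 0.0246 and 0.0394.

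Against WT, 2 of the 7 genes were lower in ING4-/- HSPCs and none was higher. Tet2 was 15.6-fold lower and Tet1 3.41-fold lower, Uhrf1 had the only positive log2 fold change under TMM normalization (0.96), and the median of the 7 was -0.99. A call needed an adjusted p below 0.05 together with a log2 fold change beyond 1 in either direction, in a fit of the 3 ING4-/- against the 3 WT libraries, in which the populations stood in for replicates. Of the 31001 genes tested, 56.7% were called lower and 7.98% higher, so that 2 of 7 is not above the share of all genes. A stricter minimum of 10 counts in each of the 6 libraries left 9673 genes, all 7 members among them, of which 9.68% were called lower and 8.3% higher, and Tet2, Tet1 and Dnmt3a were called lower. There, too, length went with the call, since 43.3% of the 730 genes with at least 10000 exonic bases were called lower (median log2 fold change -1.44), against 6.93% of the shorter ones (median 0.11). With the estimated background subtracted, 38.7% of 19741 genes were called lower, and of the members Tet1 and Dnmt1 were. In a fit with the population as a block, 54.4% of all genes were called lower, and so were Tet2, Tet1 and Dnmt3a. Upper-quartile normalization gave no lower member and 1 higher, Uhrf1, where 55.1% of all genes were called lower and 14.7% higher.

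**Figure D2:**
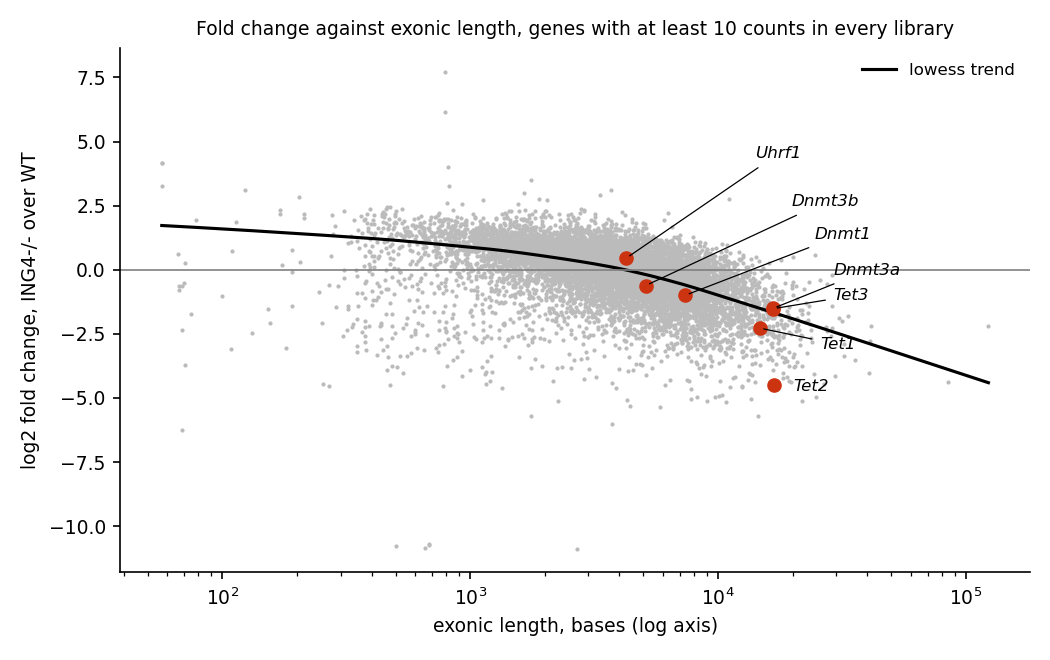
The log2 fold change of ING4-/- over WT against exonic length in bases (log axis) for the 9673 genes that reached 10 counts in each library (grey), with a lowess trend (line) and the 7 genes (red). The distance from the trend is -2.82 for Tet2 and -0.78 for Tet1, both under the line, and 0.15 for Tet3 and for Dnmt3a, just over it.

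Dnmt1 (chr9:20907209-20959888 of mm10, minus strand, 7377 exonic bases) codes for the maintenance methyltransferase. It had 1791, 2407 and 2359 counts in WT and 2263, 7871 and 5662 in ING4-/-. Per kb these were 25.6, 35.1 and 31.4 CPM in WT and 9.80, 33.7 and 22.6 CPM in ING4-/-. The ING4-/- ST-HSC value lay within the WT range, and the ING4-/- LT-HSC value was the lowest of the 6. With a log2 fold change of -0.48 (SE 0.42, adjusted p = 0.365), Dnmt1 did not pass the test. Background was 5.66 to 9.23% of its WT counts, and after subtraction the WT levels became 35.6, 53.2 and 41.9 CPM per kb against 8.75, 28.3 and 19.5, with a log2 fold change of -1.21 (SE 0.42, adjusted p = 0.0486). Upper-quartile normalization gave 0.12 (adjusted p = 0.824), so the direction of Dnmt1 depended on the scaling. Its call came with the subtraction, which also lowered the WT totals and changed the TMM factors (1.22 to 1.07 in WT LT-HSCs). These effects were not separated.

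Uhrf1 (chr17:56303321-56323486, plus strand, 4259 exonic bases) binds half-methylated CpG sites and ubiquitinates histone H3, which holds Dnmt1 at the new strand. It had 947, 1433 and 1609 counts in WT and 4175, 12435 and 9303 counts in ING4-/-. The levels were 23.4, 36.2 and 37.1 CPM per kb in WT and 31.3, 92.3 and 64.4 CPM per kb in ING4-/-. Within each population the ING4-/- library was the higher, but the ING4-/- LT-HSC value lay inside the WT range. Uhrf1 missed the test at a log2 fold change of 0.96 (SE 0.41, adjusted p = 0.0736). With the population as a block it was 0.86 (SE 0.23, adjusted p = 0.0369), under the fold asked of a call. Without the ING4-/- LT-HSC library it was 1.31 (adjusted p = 0.00515), with upper-quartile normalization 1.56 (adjusted p = 0.0109), and with the background subtracted 0.23 (adjusted p = 0.685). After subtraction the LT-HSCs turned in direction, at 32.3 CPM per kb in WT and 28.0 in ING4-/- (log2 ratio -0.21), while the ratios of ST-HSCs and MPPs were 0.50 and 0.15. A gene model elsewhere, Gm5648, is 98.3% identical to Uhrf1 over 1590 bases, and its own counts were at most 41. How reads that match both were counted was not given, so the share of Uhrf1 reads affected is not known. Summed S phase and cycling genes moved with Uhrf1, at 1542, 2985 and 2568 CPM in WT and 2198, 6947 and 4854 CPM in ING4-/-, and their part in the Uhrf1 values was not tested.

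Both genes of the maintenance pair carried E2F-like letters at a start site, which is why their sequences are shown. E2F factors drive genes of DNA replication. Promoter windows of 250 bases before to 50 after each start were taken from RefSeq (GRCm38.p6, the same coordinates as mm10), in which all 7 members were matched with 12 windows. The letters TTTGGCGC, TTTCCCGC and TTTCGCGC were searched on both strands, and 606 of 32851 windows (1.85%) held at least one of them. Among the members such letters were in 1 window of Dnmt1, with 2 matches, and in 1 window of Uhrf1, and in none of the windows of the other 5. The matches are in capitals below, the first of them on the strand opposite to the gene.
Dnmt1, chr9:20952824-20952853, minus strand: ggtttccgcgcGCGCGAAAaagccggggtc
Dnmt1, chr9:20952574-20952601, minus strand: gcggggcagcgTTTGGCGCgggctgtgc
Uhrf1, chr17:56304117-56304146, plus strand: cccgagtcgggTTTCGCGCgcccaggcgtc
The first Dnmt1 match begins 219 bases before the start of its window's transcript and the Uhrf1 match 185 bases before its own, and the second Dnmt1 match is 33 bases after the start. Both Dnmt1 stretches are exonic in the counted gene model.

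The 250 bases before that Uhrf1 start also held 2 copies of CCAAT, the letters of the NF-Y factor, which were in 37.4% of all windows on either strand. The E2F-like letters and both CCAAT copies are in capitals.
Uhrf1, chr17:56304063-56304312, plus strand: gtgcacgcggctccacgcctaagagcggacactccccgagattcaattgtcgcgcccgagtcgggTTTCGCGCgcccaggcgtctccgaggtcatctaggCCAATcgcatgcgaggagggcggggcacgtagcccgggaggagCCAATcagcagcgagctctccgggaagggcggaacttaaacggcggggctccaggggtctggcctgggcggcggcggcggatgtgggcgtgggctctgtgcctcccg
The ratio of observed to expected CpG was 0.96 in this window and 0.91 in the Dnmt1 window, against a median of 0.384 over all windows. The highest of the members was Tet2, with 57 CpG in its window and a ratio of 1.17. On either strand, CCAAT was also found 3 times in the Dnmt1 window with E2F-like letters and 5 times in another Dnmt1 window. The other Uhrf1 window held 3 copies and the Tet3 window 1. These letters describe the reference sequence, and no binding was measured.

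Although the 2 genes of the maintenance pair were tested apart, their ratio within a library needs no scaling between libraries. Uhrf1 stood at 0.916, 1.03 and 1.18 times the Dnmt1 level in WT, and at 3.20, 2.74 and 2.85 times in the ING4-/- populations. The groups did not overlap, each ING4-/- ratio being over 2-fold above the WT ratio of the same population. The mean difference was 1.49 on the log2 scale (exact permutation test, two-sided p = 0.10, the smallest that 3 against 3 allows, and 0.20 after Benjamini-Hochberg adjustment over 4 ratios chosen after the values were seen). Background subtraction left the ratios at 0.908, 1.03 and 1.19 in WT and 3.20, 2.74 and 2.85 in ING4-/-. Of the difference of 1.45 between the log2 fold changes of Uhrf1 and Dnmt1 under the minimum of 10 counts, 0.86 remained once the trend on exonic length was taken off.

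**Figure D3:**
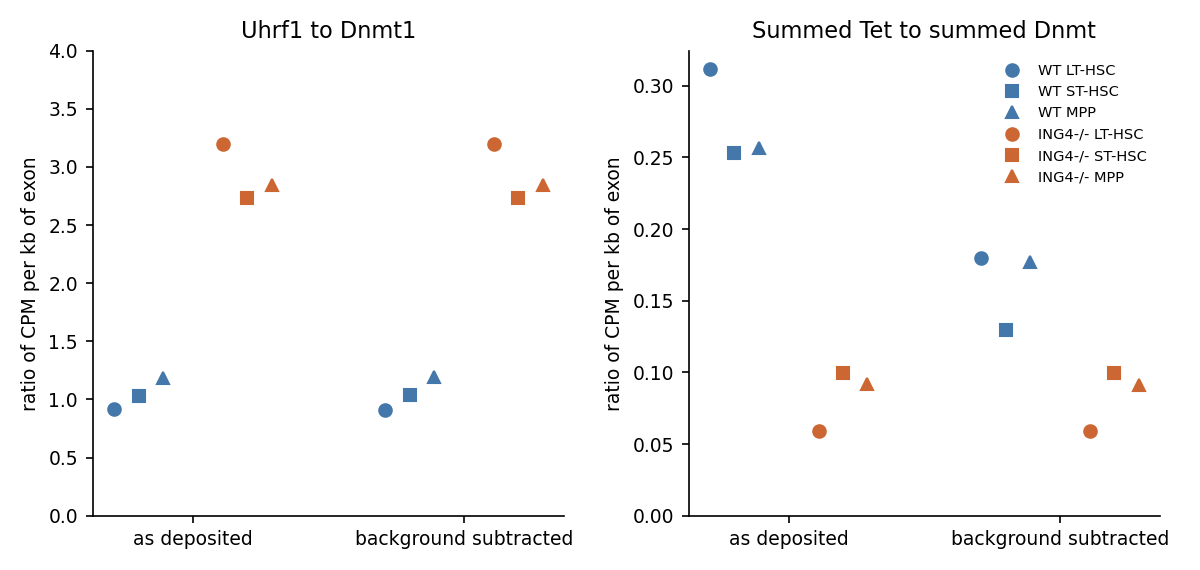
The ratio of Uhrf1 to Dnmt1 (left) and of the summed Tet genes to the summed Dnmt genes (right), as levels in CPM per kb of exon, in each library as deposited and with the estimated background subtracted. The ING4-/- points lie above all WT points on the left (2.74 to 3.20 against 0.916 to 1.18) and below them on the right, where subtraction narrows the gap.

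Of the de novo enzymes, Dnmt3a was lower in each ING4-/- library than in any WT library, while Dnmt3b overlapped. Dnmt3a (chr12:3806007-3914443, plus strand, 16642 exonic bases, of which 0.80% overlap the antisense gene Dnmt3aos) had 704, 631 and 1165 counts in WT and 1035, 923 and 2193 in ING4-/-. Its levels were 4.46, 4.08 and 6.87 CPM per kb in WT and 1.99, 1.75 and 3.88 CPM per kb in ING4-/-. In both genotypes the MPP library was the highest. The 2 groups did not overlap, as for 49% of the 9673 genes above that minimum. Dnmt3a had a log2 fold change of -1.01 (SE 0.41, adjusted p = 0.0616). It passed the test at -1.07 with the population as a block (adjusted p = 0.0369) and at -1.51 under the minimum of 10 counts (adjusted p = 0.0242). Under that minimum the trend at this exonic length was -1.66, so Dnmt3a lay just over it. With upper-quartile normalization the log2 fold change was -0.43 (adjusted p = 0.366). Background was 53.0, 60.0 and 25.9% of the WT counts, and after its subtraction the groups overlapped (3.21, 2.66 and 7.21 CPM per kb against 1.77, 1.47 and 3.34) and the log2 fold change was -0.99 (adjusted p = 0.179).

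Dnmt3b (chr2:153649450-153687730, plus strand, 5106 exonic bases) had 452, 599 and 893 counts in WT and 1698, 2290 and 1926 in ING4-/-. These were levels of 9.32, 12.6 and 17.2 CPM per kb and of 10.6, 14.2 and 11.1 CPM per kb. All 3 ING4-/- values lay inside the WT range, with a log2 fold change of -0.12 (SE 0.31, adjusted p = 0.758), or 0.47 with upper-quartile normalization. As a share of all Dnmt3a and Dnmt3b counts, Dnmt3b took 39.1% (95% exact binomial interval 36.3 to 42.0), 48.7% (45.9 to 51.5) and 43.4% (41.2 to 45.6) in WT. In ING4-/- it took 62.1% (60.3 to 64.0), 71.3% (69.7 to 72.8) and 46.8% (45.2 to 48.3). The intervals cover counting error only and were apart within LT-HSCs and ST-HSCs, while those of the MPPs met. Per kb, the ratio of Dnmt3b to Dnmt3a was 2.09, 3.09 and 2.50 in WT against 5.35, 8.09 and 2.86 in ING4-/- (exact permutation p = 0.20), and after background subtraction it was 3.33, 6.25 and 3.02 in WT (p = 0.70).

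Of the erasers, Tet2 and Tet1 fell in ING4-/- HSPCs, and Tet3 did not pass the test. Tet2 (chr3:133463679-133545139, minus strand, 16870 exonic bases), which lacks the DNA-binding CXXC domain of the other Tet proteins and is the one most often mutated in blood cancers, had 817, 792 and 836 counts in WT. In ING4-/- LT-HSCs and ST-HSCs it had 13 and 21 counts, although these libraries were over 4-fold deeper, and in ING4-/- MPPs it had 512. The levels were 5.10, 5.05 and 4.86 CPM per kb in WT and 0.0246, 0.0394 and 0.895 CPM per kb in ING4-/-. The WT values were nearly equal, and the ING4-/- values were split between the stem cells and the MPPs. A count of 13 was over the 3 counts that a count of 0 allows, so Tet2 was detected in all 6 libraries. In bulk libraries, fewer cells with a transcript and less RNA per cell cannot be told apart.

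Tet2 thus had a log2 fold change of -3.97 (SE 1.37, adjusted p = 0.0362). The log2 ratios within populations were -7.40, -6.81 and -2.44, and with 1 library per genotype in each, their difference was not tested. Without the ING4-/- MPP library the log2 fold change was -7.25 (adjusted p = 0.00123), and with the population as a block it was -5.94 (SE 1.42, adjusted p = 0.0369). The call was lost without any one of the WT LT-HSC, ST-HSC and MPP libraries (adjusted p = 0.0607, 0.0627 and 0.0710) or the ING4-/- ST-HSC library (0.0583), each at a log2 fold change of -3.42 or below. It was also lost without both LT-HSC libraries (-3.37, adjusted p = 0.0559), without both ST-HSC libraries (-3.43, 0.105) and with upper-quartile normalization (-3.41, 0.0520). Background was 46.3, 48.5 and 36.5% of the WT counts. After its subtraction the WT levels were 4.20, 4.24 and 4.37 CPM per kb against 0.0203, 0.0315 and 0.769, with a log2 fold change of -3.96 (adjusted p = 0.0542). The groups still did not overlap, which before subtraction held for 49% of the 9673 genes above the count minimum. Under the minimum of 10 counts the log2 fold change of Tet2 was -4.50 (adjusted p = 0.0319), where the trend at this length was -1.68.

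Tet1 (chr10:62804570-62899118, minus strand, 14710 exonic bases), whose CXXC domain binds CpG-rich DNA, had 759, 643 and 1038 counts in WT and 491, 1355 and 508 in ING4-/-. The levels were 5.43, 4.71 and 6.92 CPM per kb in WT and 1.07, 2.91 and 1.02 CPM per kb in ING4-/-. The ST-HSC library was the highest of the ING4-/- group and the lowest of the WT group. The groups did not overlap, as for 49% of the 9673 genes above the count minimum. Tet1 had a log2 fold change of -1.77 (SE 0.49, adjusted p = 0.0146). It stayed past the threshold without each of the 6 libraries in turn (adjusted p from 0.0016 to 0.0394) and with the background subtracted (-1.88, adjusted p = 0.0241). The call was lost without both LT-HSC libraries (-1.53, adjusted p = 0.0506), without both MPP libraries (-1.53, 0.0780) or with upper-quartile normalization (-1.17, 0.0734). Under the minimum of 10 counts Tet1 was at -2.27 (adjusted p = 0.0108), where the trend at this length was -1.50 and -0.78 remained. Background was 25.6 to 52.0% of the WT counts.

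Tet3 (chr6:83362373-83459084, minus strand, 16695 exonic bases), the Tet enzyme that acts in the fertilised egg, had 275, 520 and 411 counts in WT and 125, 1054 and 868 in ING4-/-. The levels were 1.74, 3.35 and 2.42 CPM per kb in WT and 0.239, 2.00 and 1.53 CPM per kb in ING4-/-. The ING4-/- LT-HSC library was the lowest of the 6, and the ING4-/- ST-HSC value lay inside the WT range, and Tet3 had a log2 fold change of -0.99 (SE 0.75, adjusted p = 0.286). The estimated background was 136, 73.0 and 73.5% of the WT counts, so Tet3 was below it in WT LT-HSCs and little above it in the other WT libraries, and after its subtraction the log2 fold change was 0.43 (SE 1.62, adjusted p = 0.861).

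**Figure D4:**
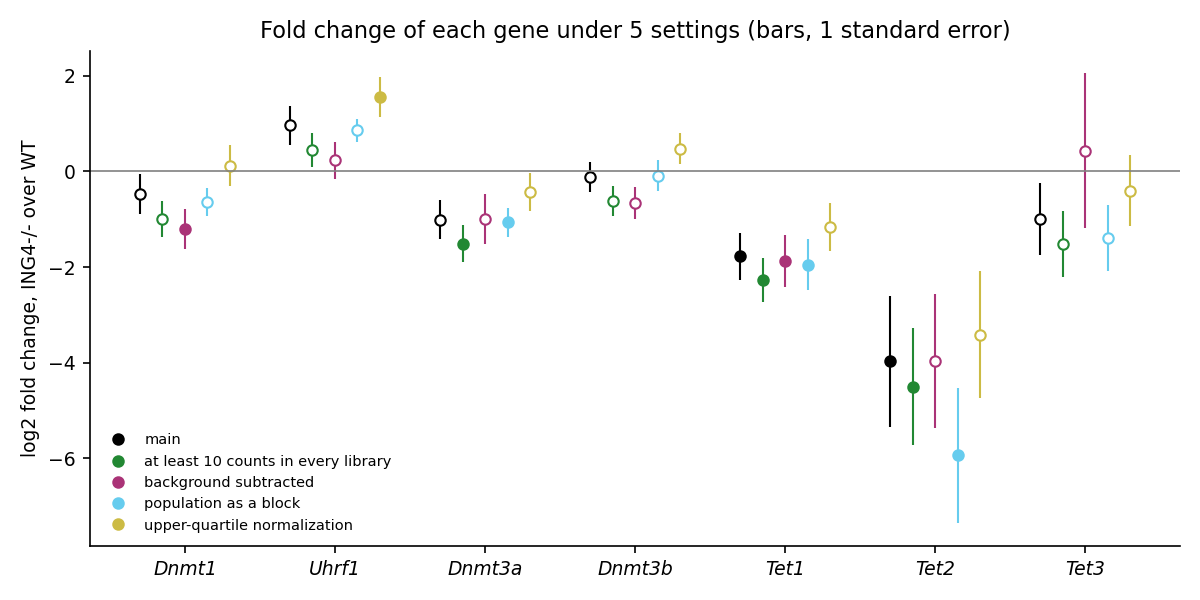
The log2 fold change of ING4-/- over WT for each gene under 5 settings, with bars of 1 standard error, where filled points passed an adjusted p of 0.05 with a log2 fold change over 1 in either direction. Tet2 lies between -5.94 and -3.41 in all 5 settings, Tet1 between -2.27 and -1.17, and Dnmt1, Dnmt3b and Tet3 have points on both sides of 0.

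The share of each Tet gene in the summed Tet level was described without a test, and that of Tet2 was lower in ING4-/- within each population. Tet2 gave 41.6, 38.5 and 34.2% of the level per kb in WT, and 1.85, 0.796 and 26.0% in ING4-/-. Tet1 gave the largest share in ING4-/- LT-HSCs (80.2%) and ST-HSCs (58.9%), and Tet3 in ING4-/- MPPs (44.5%). With the background subtracted the Tet2 share was 47.1, 45.2 and 34.8% in WT and 1.72, 0.758 and 26.0% in ING4-/-. The summed Tet level was 0.312, 0.253 and 0.256 of the summed Dnmt1, Dnmt3a and Dnmt3b level in WT, and 0.0594, 0.0996 and 0.0916 in ING4-/-, without overlap (log2 difference -1.74, exact permutation p = 0.10, adjusted 0.20). After background subtraction the WT ratios were 0.180, 0.130 and 0.177 and still above those of ING4-/- (log2 difference -0.98). Under the count minimum, the trend on exonic length was -1.50 for Tet1, -1.68 for Tet2 and -1.67 for Tet3. It was -0.60 for Dnmt1, -0.19 for Dnmt3b and -1.66 for Dnmt3a. The trend was not taken off the ratio of summed Tet to summed Dnmt levels, so the part of length in it was not tested. The ratio of Dnmt1 to summed Dnmt3a and Dnmt3b overlapped between the genotypes (exact permutation p = 0.70).

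Along the series from LT-HSC to MPP, no member passed the test in a fit of population and genotype together. In each of the 3 contrasts 0 of the 36170 genes tested were called (0% in either direction) by edgeR, with 564 genes at an unadjusted p under 0.05 for MPP against LT-HSC, 624 for ST-HSC against LT-HSC and 183 for MPP against ST-HSC. DESeq2 called 473, 353 and 216 genes in the same contrasts and none of the 7. Uhrf1 was lowest in the LT-HSCs of both genotypes, with log2 fold changes of 1.10 (SE 0.29, unadjusted p = 0.0114) in ST-HSCs and 0.84 (SE 0.29, unadjusted p = 0.0311) in MPPs against LT-HSCs. Dnmt1 was likewise lowest in both LT-HSC libraries, at 1.10 (SE 0.37, unadjusted p = 0.0271) for ST-HSCs against LT-HSCs. Dnmt3a had its lowest level in the ST-HSCs of both genotypes and its highest in the MPPs, at 0.96 (SE 0.37, unadjusted p = 0.0454) between them. The adjusted p was 1 for each of these. Tet2 was 3.14 higher in MPPs than in LT-HSCs on the log2 scale (SE 1.55, unadjusted p = 0.0924), but 0.09 without the ING4-/- MPP library, 4.94 without the WT MPP library and 0.18 with genotype left out of the fit, a difference carried by the ING4-/- libraries, since in WT the MPP level was the lowest of the 3. Tet3 was lowest in the LT-HSCs of both genotypes (1.86, SE 0.84, for ST-HSCs against LT-HSCs), Dnmt3b was so too (0.42, SE 0.41), and Tet1 had no common order. When 1 library was left out, the value for ST-HSCs against LT-HSCs ranged from 0.93 to 3.00 for Tet3 and from 0.57 to 1.60 for Dnmt1. That of Tet3 was 4.75 with the background subtracted.

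Genes that work with the members were followed in 6 lists, whose counts of calls moved with the scaling. Of all 31001 genes tested, 7.98% were called higher and 56.7% lower. Of 11 methyl-CpG readers, 1 was called higher and 2 lower, with a median log2 fold change of -0.28 that turned to 0.31 with upper-quartile normalization. Mbd3, a subunit of the NuRD complex, was higher (1.21), and Mbd5, with 19632 exonic bases, was lower (-3.83). Uhrf2, the relative of Uhrf1, did not pass (-0.38, adjusted p = 0.243). Of 15 accessory factors 13 were tested, of which 3 were called higher and 3 lower (median -0.51, or 0.10 with upper-quartile normalization). These included Pcna (1.41), the replication clamp that binds Dnmt1, Cdca7 (1.33), the partner of the remodeller Hells, and Setd2 (-1.63), whose histone mark is bound by Dnmt3a and Dnmt3b. Hells did not pass (0.05). With upper-quartile normalization 4 of the accessory factors were called higher and 0 lower, beside 14.7 and 55.1% of all genes, and Setd2 was lost (-1.03, adjusted p = 0.0642). DESeq2 size factors gave 1 higher and 4 lower. Dnmt3l, the inactive partner of Dnmt3a and Dnmt3b, was not tested, at 0 counts in the ING4-/- libraries and 1, 42 and 37 in WT, under the estimated background of 66.9, 68.0 and 54.1 counts.

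Of 17 demethylation and base excision genes, Nthl1 (1.85) and Apex1 (1.39) were called higher and none lower (median 0.30, or -0.06 with DESeq2 size factors), and Tdg, the glycosylase that removes the bases oxidised by Tet enzymes, did not pass (0.12, adjusted p = 0.798). Of 12 CXXC domain proteins and Tet cofactors, 2 were higher and 2 lower (median -0.40, or 0.19 with upper-quartile normalization). Cxxc5 (1.28) and Idh2 (1.10), which makes the 2-oxoglutarate that Tet enzymes use, were higher, Kmt2a (-1.85) was lower, and Idh1 did not pass (0.08). The other one called lower was Cxxc4, chosen for mention after its values were seen, with 0 counts in the ING4-/- libraries and 376, 301 and 208 in WT beside an estimated background of 300.2, 304.8 and 242.5. Of 14 genes of methyl donor synthesis, 4 were higher and 1 was lower (median 0.45, from 0.08 to 1.04 over the scalings, with 2 to 7 called higher). Shmt2 (1.44) and Ahcy (1.38), which clears the product that inhibits methyltransferases, were higher, Ahcyl2 (-2.12) was lower, and Mat2a had an adjusted p of 0.00494 at a log2 fold change of 0.94, under the fold asked of a call. Of 16 S phase and cycling genes, 3 were called higher and 1 lower, with a median of 1.06 (0.69 to 1.65 over the scalings). The number called higher was 0 with DESeq2 size factors, 8 with the population as a block and 13 with upper-quartile normalization. Cdk1 (1.58) was the highest of these calls, and Mki67 (-4.38), a marker of cycling cells with 10061 exonic bases, was the one called lower. The median over all genes tested was -6.85. Under the minimum of 10 counts, where that median was 0.02, no listed gene was called higher and 11 were called lower, beside 8.3% and 9.68% of all genes. The median of the S phase list was 0.55 under this minimum and 0.30 with the background subtracted, with none of the list called higher in either. With the background subtracted, Setd2 (-2.02) and Mki67 (-4.81) were still called, and none of the other listed genes named here was.

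**Figure D5:**
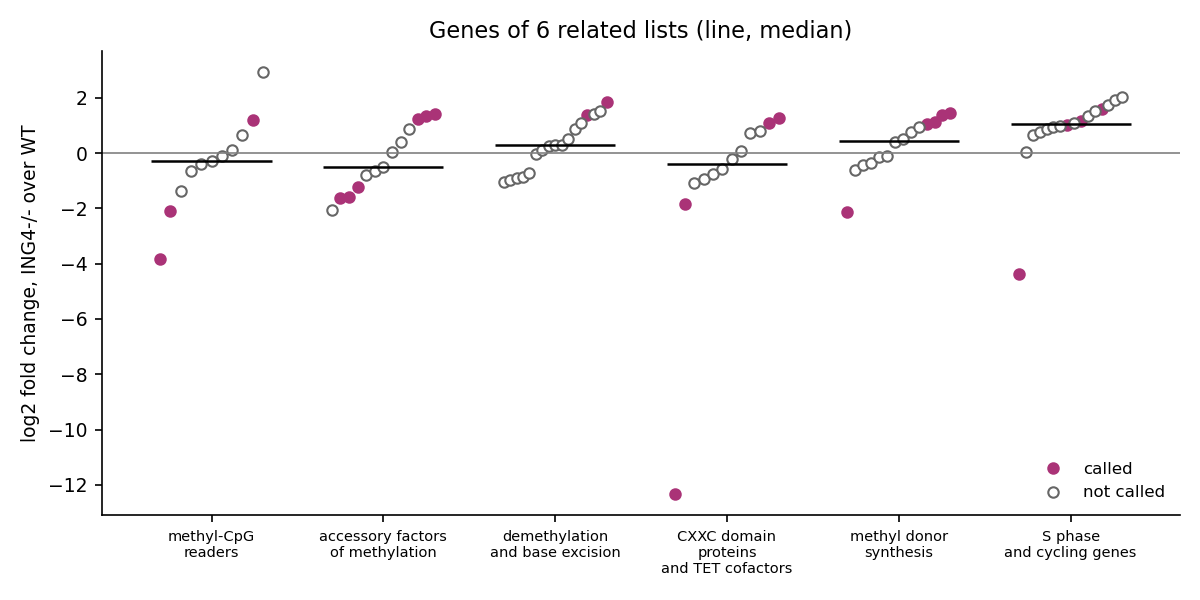
The log2 fold change of ING4-/- over WT for each tested gene of the 6 lists (a point for each gene, filled where called, with a line at the median of each list). The medians lie between -0.51 and 1.06, and each list holds points on both sides of 0.

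For each member, the gene nearest in pattern was taken by Pearson's r of log2 CPM over the 6 libraries, among the 9672 other genes above the minimum of 10 counts, as a description. These were Hivep2 for Tet2 (r = 0.999), Zmym6 for Tet1 (0.996), Ap1ar for Dnmt1 (0.996), Mars for Uhrf1 (0.994), Zfp62 for Dnmt3b (0.994), Cdkn1b for Tet3 (0.989) and Zfp799 for Dnmt3a (0.982). An r over 0.95 was not particular to the nearest gene, since of the 9672 genes 136 had it with Uhrf1, 116 with Tet2 and 4 with Dnmt3b. The 6 points share depth and background by genotype, and their part in these r was not tested. Among the members themselves the highest r were those of Dnmt1 with Tet3 (0.981) and of Dnmt3a with Tet2 (0.927), and Uhrf1 with Dnmt1 had 0.314.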

How the data were processed

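RNA was sequenced in bulk from 6 sorted samples, grouped by the genotype and population in the labels. The authors deposited raw counts of reads for 49315 genes per library, without normalization. The submitters' processing notes name mm10. The aligner, the counting program and the strand setting were not given in the sources used here. Identifiers were named by GENCODE M21 (49056 found, 259 not).

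The counts were fitted with edgeR 4.0.16 (R 4.3.3): TMM normalization, filterByExpr, the quasi-likelihood F test on genotype, and Benjamini-Hochberg adjustment over all genes tested. A standard error is the size of the log2 fold change over the root of its F value. Populations were compared in an additive fit with genotype. DESeq2 1.42.0 was the other count test. Levels are TMM-scaled CPM, divided by exonic kb between genes, and log2 CPM used a prior count of 2. Each population had 1 library per genotype, so nothing was tested within one, and p-values measure the spread between populations of pooled marrow. Ratios were compared by exact permutation tests in scipy 1.17.1.

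Background was the counts per kb of exon over protein-coding olfactory and vomeronasal receptor genes, times exonic length, an average that single genes depart from. Its subtraction was followed by new library totals and TMM factors, so values after it also differ in scaling. The libraries can be paired by population, and population as a block was an alternative. The deviations of same-population libraries from the mean of their genotype correlated only weakly over 9673 genes (r = 0.141 for the LT-HSC pair, 0.108 for the ST-HSC pair and 0.12 for the MPP pair). Libraries of a genotype differed by more than sampling noise (chi-square over degrees of freedom of 15.4 or more for each pair within a genotype). Depth was 7839326 to 39192588 counts. A gene at 0 counts may have up to 3, or a CPM of 0.0765 in the deepest library and 0.383 in the shallowest, which covers counting error only, as do the intervals.

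The members, a family given by name, and the lists were chosen with earlier results of these data known. The genes named were, by rule, the members, Ing4, the sort markers, the called list genes of highest and lowest log2 fold change with at least 10 counts in each library, a fixed set of partners, and the nearest gene of each member. The results for 2 of these list genes are not reported here. Other alternatives were DESeq2 size factors, upper-quartile normalization, other count filters, leaving out each library or population, and removal of the length trend. Near-identical copies were searched with BLAST 2.17.0 at 95% identity over at least 300 bases. Scripts were tested on simulated data.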

Additional observations from a re-analysis of the deposited data

Results flagged for a closer look

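Dnmt3b differed in direction between the populations. The log2 ratio of ING4-/- over WT came to 0.188 for the LT-HSCs, to 0.167 for the ST-HSCs, but to -0.625 for the MPPs. With 1 library per genotype in each population, the difference was not tested. With the background subtracted the ratios were -0.17, -0.48 and -1.19, all in 1 direction.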

How the results depend on the processing

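Counting limits Tet2 most, with 13 and 21 counts in ING4-/- LT-HSCs and ST-HSCs, and background limits Tet3 most in WT. Between the genotypes, 2 members were called, both lower, against 1 with upper-quartile normalization (Uhrf1, higher), 1 without both LT-HSC libraries (Uhrf1, higher) and 1 without both ST-HSC libraries (Tet1, lower), and 1 to 3 when 1 library was left out. Over all genes, 1739 were called with at least 10 counts in every library and 8754 with the background subtracted, against 20041. The cause was not tested. With the population as a block (replicate block), 3 members were called, adding Dnmt3a, and no member lost its call, while 54.4% of all genes were called lower. Upper-quartile normalization shifted the median of all genes by 0.547 and turned Dnmt1 to 0.12 and Dnmt3b to 0.47, and DESeq2 size factors shifted it by -0.329. Background subtraction turned Tet3 to 0.43 and the median of the demethylation list to -0.19, and the count minimum turned that median to -0.10. For MPP against LT-HSC, 2 genes were called with the count minimum and 473 by DESeq2, which called 353 for ST-HSC against LT-HSC and 216 for MPP against ST-HSC.

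In the population contrasts, no adjusted p of a member passed under any setting. When 1 library was left out, Tet1 ranged from -0.57 to 0.71 (MPP against LT-HSC), from -0.32 to 1.39 (ST-HSC against LT-HSC) and from -1.37 to 0.46 (MPP against ST-HSC). Tet2 ranged from 0.09 to 4.94 (MPP against LT-HSC), from -1.41 to 2.26 (ST-HSC against LT-HSC) and from -0.22 to 4.68 (MPP against ST-HSC). For MPP against ST-HSC, Dnmt1 ranged from -0.74 to 0.089, Dnmt3b from -0.34 to 0.46, Tet3 from -1.09 to 0.18 and Uhrf1 from -0.57 to 0.14. There Dnmt3b turned to -0.049 with DESeq2 size factors, to -0.048 with DESeq2 and to -0.033 with the count minimum. With no replicate block, that is genotype left out of the fit, Tet2 turned to -0.013 (ST-HSC against LT-HSC) and Tet1 to 0.052 (MPP against ST-HSC).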
